A study of Homo sapiens with 6 samples.

Results

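Integrins and adhesion molecules of the immunoglobulin family hold blood cells to matrix, vessel wall and other cells. The set described here was given as 35 genes by symbol: 17 integrin alpha subunits, 8 integrin beta subunits and 10 immunoglobulin family members. Each gene was read at 1 probe set, the one with the highest mean on the log2 scale across the 6 arrays among those annotated to the gene alone or together with others. This gave 34 genes of 19776 tested; F11R was not analysed here, and ITGB6 was read at a probe set that also lists LINC02478. The arrays were Affymetrix U133 Plus 2.0, and the cells were MOLM-14, a line of human acute myeloid leukaemia that carries the MLL-AF9 fusion. CA samples (n = 3) had 25 nM cortistatin A (CA), an inhibitor of the Mediator kinases CDK8 and CDK19, for 3 h; DMSO samples (n = 3) had the solvent for 3 h. The question of the comparison is which transcripts differed after 3 h of CA.

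An integrin is a pair of an alpha and a beta subunit, which together form the binding head and span the membrane. The pair switches from a bent, weakly binding form to an extended one when talin and kindlin bind the beta subunit's tail inside the cell, and it can then signal through focal adhesion kinases. On myeloid cells the pairs with ITGB2 and with ITGB1 bind, among others, the ICAM proteins, VCAM1 and fibronectin, while PECAM1 mostly binds PECAM1 on the neighbouring cell and can inhibit signalling through its tail.

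All values are log2 expression values made with RMA, and changes are CA minus DMSO. A gene is called changed at a Benjamini-Hochberg adjusted p under 0.05 in limma over all 19776 genes, and is called dim where its mean log2 value was below 5.05, the median over all probe sets. Array medians ranged from 5.03 to 5.08 on the log2 scale, and pairs of arrays correlated at 0.997 to 0.999. CA replicate 3 stood apart: the first principal component (31.6% of the variance) put it at 19.7, with the other arrays between -8.25 and 0.74. Cells were plated in triplicate wells and no separate cultures are named, so p-values reflect only the spread between wells, which may be technical. All 8 measured myeloid markers were above the dim limit, some only narrowly. Means ran from 5.10 for CD86 and 5.43 for SPI1 to 6.35 for MPO, 10.34 for FLT3 and 12.37 for LYZ. Markers of other lists were above the limit too, such as PAX5 (B cell, 9.56) and KRT18 (epithelial, 9.26). Of 6 endothelial markers 4 were dim, CDH5, KDR, TEK and EMCN, and of 5 platelet and megakaryocyte markers 3 were dim.

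PECAM1, the adhesion and signalling receptor also known as CD31, was the only member called higher, and none was called lower. Of 34 members 1 was called (limma, adjusted p), where 0.895% of all genes were called, 0.839% in the higher and 0.0556% in the lower direction. Members had a median log2 change of 0.03, all genes one of 0.0037. With no adjustment, 6 members had a p under 0.05, 5 of them higher and 1 lower, where the shares over all genes were 11.6%, 7.09% and 4.5%. The 3 CA values lay above the 3 DMSO values in 5 members and below them in 2, where the shares over all genes were 11.8% and 7.53%. Together this is 20.6% of the members, near the 19.3% of all genes. In bulk RNA, a change in how many cells carry a transcript and a change in its level per cell cannot be told apart.

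**Figure D1:**
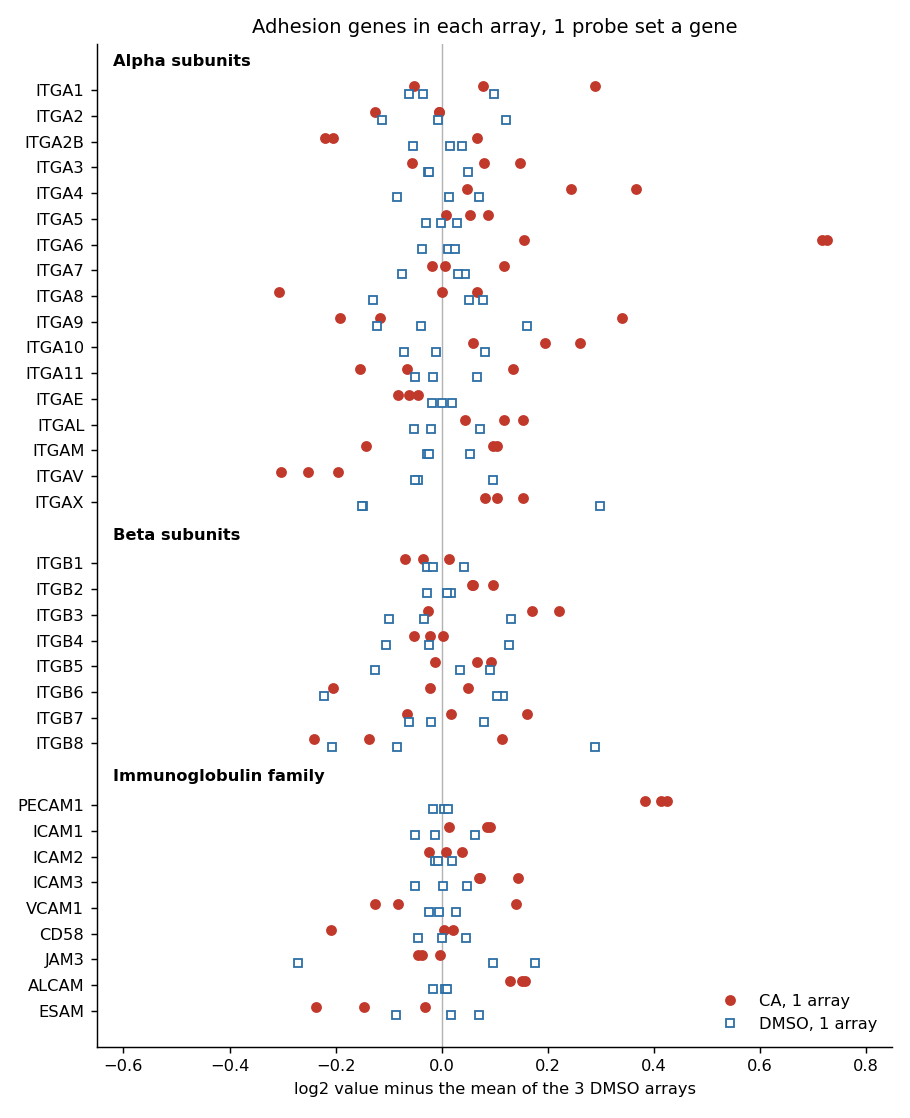
Log2 value of each of 34 adhesion genes in each array, minus the mean of the 3 DMSO arrays of that gene; filled circles are CA arrays, open squares DMSO arrays. The PECAM1 arrays form 2 narrow groups set 0.41 apart, the CA arrays of ITGA6 spread widely, and the groups of most other genes overlap.

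Within the immunoglobulin family, PECAM1 had log2 values of 11.09, 11.12 and 11.13 in CA and 10.69, 10.71 and 10.72 in DMSO. The 3 arrays of each group lay close together, and the groups did not overlap. Group means were 11.11 ± 0.02 in CA and 10.71 ± 0.02 in DMSO (SD, n = 3 each). The change was 1.33-fold (95% confidence interval 1.24 to 1.42, limma adjusted p = 0.0153), and by p PECAM1 ranked 44 among all genes. The call changed when single arrays were left out: it held without CA replicate 3 (adjusted p = 0.0359) but not without CA replicates 1 or 2 (adjusted p = 0.0767 and 0.0871) or DMSO replicates 1, 2 or 3 (adjusted p = 0.120, 0.0935 and 0.108), although the log2 change stayed between 0.40 and 0.42.

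The array holds 5 probe sets for PECAM1, and 4 of them were higher in every CA array than in any DMSO array. At 208983_s_at the values were 7.67, 7.68 and 7.71 in CA and 7.20, 7.18 and 7.14 in DMSO, a log2 change of 0.51. At 208981_at they were 8.84, 8.90 and 8.83 in CA and 8.47, 8.48 and 8.47 in DMSO, a log2 change of 0.38. The dim probe set 1558397_at gave a log2 change of 0.41. The fifth, 1559921_at, had overlapping groups, with 5.74, 5.54 and 5.88 in CA and 5.76, 5.75 and 5.83 in DMSO. When all 54613 probe sets were tested together, 2 of the 5 were called, the one used (adjusted p = 0.0464) and 208983_s_at (adjusted p = 0.0241), against 0.22% of all probe sets. The 5 are repeat readings of 1 gene on the same arrays, and the one used gave the call above. They are therefore not separate support for it.

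**Figure D2:**
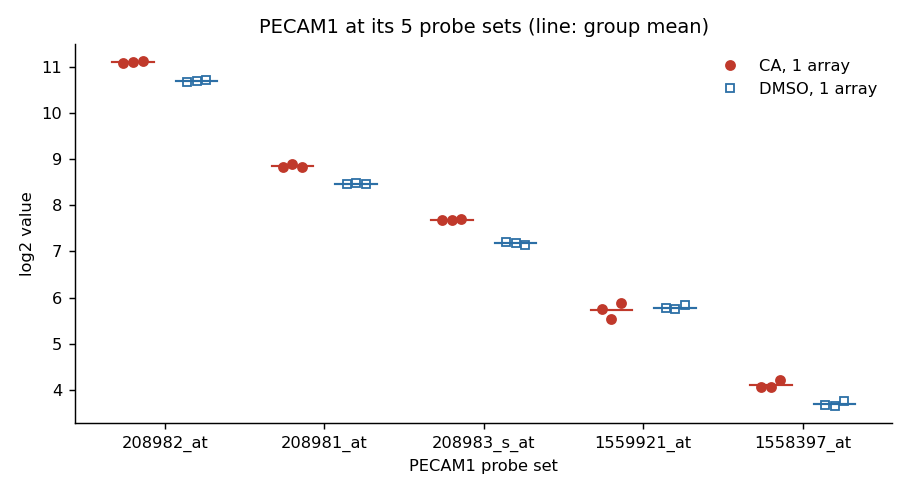
Log2 values of PECAM1 at each of its 5 probe sets; filled circles are CA arrays, open squares DMSO arrays, lines group means. At 4 probe sets the CA arrays lie above the DMSO arrays, with log2 changes of 0.38 to 0.51, and at 1559921_at the groups overlap.

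ALCAM, which binds CD6 on T cells and other ALCAM molecules, had log2 values of 10.28, 10.31 and 10.30 in CA and 10.13, 10.15 and 10.16 in DMSO. The groups did not overlap, but the change was only 1.11-fold (1.03 to 1.18) and missed the threshold (adjusted p = 0.248), passing with an intensity trend and a robust prior in the fit (adjusted p = 0.0271). Its second probe set, 201951_at, gave a log2 change of 0.05.

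The ICAM proteins are ligands of the ITGB2 integrins. ICAM3, which resting leukocytes carry, had 9.023, 9.097 and 9.025 in CA and 8.902, 8.956 and 9.001 in DMSO, with groups that just failed to overlap and a log2 change of 0.10 (adjusted p = 0.523). ICAM1, which inflammatory signals induce, had 7.43, 7.36 and 7.44 in CA and 7.33, 7.29 and 7.41 in DMSO. These groups overlapped, and the interval of the ICAM1 change ran from 0.960-fold to 1.14-fold. ICAM2, found on endothelium, platelets and leukocytes, had 8.86, 8.83 and 8.89 in CA and 8.84, 8.87 and 8.85 in DMSO, with an interval from 0.937-fold to 1.08-fold. At the second ICAM2 probe set, 204683_at, the values were 7.26, 7.30 and 7.26 in CA and 7.07, 7.19 and 7.13 in DMSO. There the groups did not overlap, with a log2 change of 0.14 (adjusted p = 0.563 over all probe sets).

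CD58, the ligand of CD2 on T and NK cells, had 8.77, 8.75 and 8.54 in CA and 8.75, 8.80 and 8.71 in DMSO. The low CA value was that of replicate 3, and the groups overlapped. VCAM1, the ligand of the ITGA4 integrins on activated endothelium and stroma, was dim, with 3.30, 3.35 and 3.57 in CA and 3.42, 3.46 and 3.41 in DMSO. The junctional molecule JAM3 was dim too, with group means of 4.83 in CA (4.81 to 4.85) and 4.85 in DMSO (4.58 to 5.03), and ESAM, an endothelial and platelet molecule, had means of 5.15 in CA (5.05 to 5.25) and 5.28 in DMSO (5.20 to 5.35) and an interval from 0.808-fold to 1.02-fold.

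None of the 17 alpha subunits was called in limma, where 0.895% of all genes were called. At an unadjusted p under 0.05, ITGA4, ITGA6 and ITGA10 were higher and ITGAV was lower. Over all genes the shares were 7.09% higher and 4.5% lower. The 17 alpha subunits had a median log2 change of 0.03, and 5 of them were dim. ITGA6, a laminin receptor subunit, differed by the largest amount of all members. It had 6.22, 6.21 and 5.65 in CA and 5.51, 5.46 and 5.52 in DMSO. CA replicates 1 and 2 lay far above every DMSO array, and replicate 3 lay just above them. The change was 1.45-fold with a wide interval (1.12 to 1.87), and adjusted p was 0.269. Without CA replicate 3 the log2 change was 0.72 in place of 0.53 and passed the threshold (adjusted p = 0.0189). The second ITGA6 probe set, 215177_s_at, was dim and gave a log2 change of 0.05.

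ITGAV, which with several beta subunits binds vitronectin and latent TGF-beta, was the member with the largest difference downward. It had 8.17, 8.11 and 8.06 in CA and 8.32, 8.46 and 8.31 in DMSO, so every CA array lay below every DMSO array. The log2 change was -0.25 (-0.39 to -0.11, adjusted p = 0.182), and it passed only with an intensity trend and a robust prior among the alternatives run (adjusted p = 0.0355). ITGAV has a single probe set.

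ITGA4, which pairs with ITGB1 to bind VCAM1 and fibronectin, had 9.55, 9.68 and 9.36 in CA and 9.23, 9.33 and 9.38 in DMSO. CA replicate 3 lay within the DMSO values, and the change was 0.22 (0.0045 to 0.44, adjusted p = 0.422). Its other probe sets gave 0.35, 0.15 and 0.05. ITGA5, the fibronectin receptor subunit, had 7.08, 7.13 and 7.16 in CA and 7.10, 7.04 and 7.07 in DMSO, which overlapped, and its interval ran from 0.960-fold to 1.12-fold. ITGA10, a collagen receptor subunit of cartilage, was dim, with 4.67, 4.80 and 4.87 in CA and 4.60, 4.69 and 4.54 in DMSO (adjusted p = 0.422).

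The alpha subunits that pair with ITGB2 are those typical of leukocytes. ITGAL, which forms LFA-1 and binds ICAM1, ICAM2 and ICAM3, had 9.039, 9.003 and 8.929 in CA and 8.865, 8.958 and 8.833 in DMSO. The groups overlapped at the probe set used, with a log2 change of 0.11 (adjusted p = 0.532). At the other ITGAL probe set, 1554240_a_at, they did not overlap, with 8.74, 8.63 and 8.59 in CA and 8.43, 8.47 and 8.41 in DMSO (adjusted p = 0.387 over all probe sets). ITGAM, the subunit of the complement receptor Mac-1, had 7.58, 7.59 and 7.34 in CA and 7.46, 7.54 and 7.46 in DMSO, and CA replicate 3 was the lowest of all arrays. ITGAX, a marker of dendritic cells and macrophages, had 5.72, 5.75 and 5.80 in CA and 5.50, 5.49 and 5.94 in DMSO. Here DMSO replicate 3 was the highest array, and the interval ran from 0.879-fold to 1.33-fold.

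ITGAE, which pairs with ITGB7 on T cells of epithelia and binds E-cadherin, had 10.76, 10.74 and 10.72 in CA and 10.82, 10.80 and 10.78 in DMSO. Every CA array was lower, but by only 0.06 on the log2 scale (adjusted p = 0.617). ITGA2B, the platelet fibrinogen receptor subunit, had 5.778, 5.761 and 6.049 in CA and 5.998, 5.928 and 6.019 in DMSO, with CA replicate 3 the highest array. The other alpha subunits, ITGA1, ITGA2, ITGA3, ITGA7, ITGA8, ITGA9 and ITGA11, are mostly receptors for collagens, laminins and other matrix proteins. Their log2 changes lay between -0.08 (ITGA8) and 0.10 (ITGA1), their groups overlapped, and of these ITGA1, ITGA2, ITGA3 and ITGA9 were dim.

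Among them ITGA7, a laminin receptor subunit of muscle, averaged 6.97 in CA (6.92 to 7.05) and 6.93 in DMSO (6.86 to 6.98). Its other probe set, 209663_s_at, was dim and had groups that did not overlap, with a log2 change of 0.28 (adjusted p = 0.539 over all probe sets). ITGA11, a collagen receptor subunit of fibroblasts, averaged 5.67 in CA (5.55 to 5.84) and 5.70 in DMSO (5.65 to 5.77), and ITGA8 averaged 5.054 in CA (4.827 to 5.200) and 5.134 in DMSO (5.004 to 5.212). In these 3 the CA arrays spread more widely than the difference between the means. Of the dim ones, the collagen receptor subunits ITGA1 and ITGA2 averaged 4.78 in CA (4.62 to 4.96) and 4.67 in DMSO (4.61 to 4.77), and 3.89 in CA (3.81 to 3.93) and 3.93 in DMSO (3.82 to 4.05). The laminin receptor subunit ITGA3 averaged 4.26 in CA (4.15 to 4.35) and 4.20 in DMSO (4.18 to 4.26). ITGA9, which binds tenascin and osteopontin, averaged 4.202 in CA (3.9996 to 4.532) and 4.191 in DMSO (4.070 to 4.352).

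None of the 8 beta subunits was called, where 0.895% of all genes were called. With an unadjusted p under 0.05 there were 0 of the 8, where the share over all genes was 11.6%. The beta subunits had a median log2 change of 0.0069. ITGB2, the beta subunit of leukocytes, had 10.92, 10.96 and 10.92 in CA and 10.88, 10.83 and 10.87 in DMSO. The groups did not overlap, and the interval of the change ran from 0.979-fold to 1.13-fold (adjusted p = 0.580). ITGB1, the partner of most alpha subunits, had 11.49, 11.54 and 11.46 in CA and 11.50, 11.57 and 11.51 in DMSO, with overlapping groups and an interval from 0.905-fold to 1.06-fold. ITGB7, the partner of ITGA4 and ITGAE, had 6.55, 6.33 and 6.41 in CA and 6.37, 6.33 and 6.47 in DMSO, which overlapped.

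ITGB3, the partner of ITGA2B and ITGAV, had 5.97, 5.77 and 6.02 in CA and 5.70, 5.76 and 5.93 in DMSO, and its 7 probe sets gave log2 changes from -0.17 to 0.20. ITGB5, another partner of ITGAV, had 6.49, 6.51 and 6.41 in CA and 6.51, 6.30 and 6.45 in DMSO. Both sets of groups overlapped. ITGB8, which takes part in activating TGF-beta, was dim, with 3.22, 3.48 and 3.12 in CA and 3.28, 3.15 and 3.65 in DMSO. ITGB6, an epithelial subunit, was dim as well, with means of 4.07 in CA (3.92 to 4.17) and 4.13 in DMSO (3.90 to 4.24), and ITGB4, the hemidesmosome subunit, had means of 5.997 in CA (5.969 to 6.024) and 6.021 in DMSO (5.917 to 6.149).

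Set side by side, the subunits of known pairs gave separate readings. For the laminin receptor of ITGA6 and ITGB1 the log2 changes were 0.53 and -0.031, and for that of ITGA6 and ITGB4 they were 0.53 and -0.024. For ITGAV they were -0.25, beside 0.12 for ITGB3 and 0.05 for ITGB5. For LFA-1 they were 0.11 for ITGAL and 0.07 for ITGB2. None of these subunits passed the threshold, and whether partners differed from each other was not tested.

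**Figure D3:**
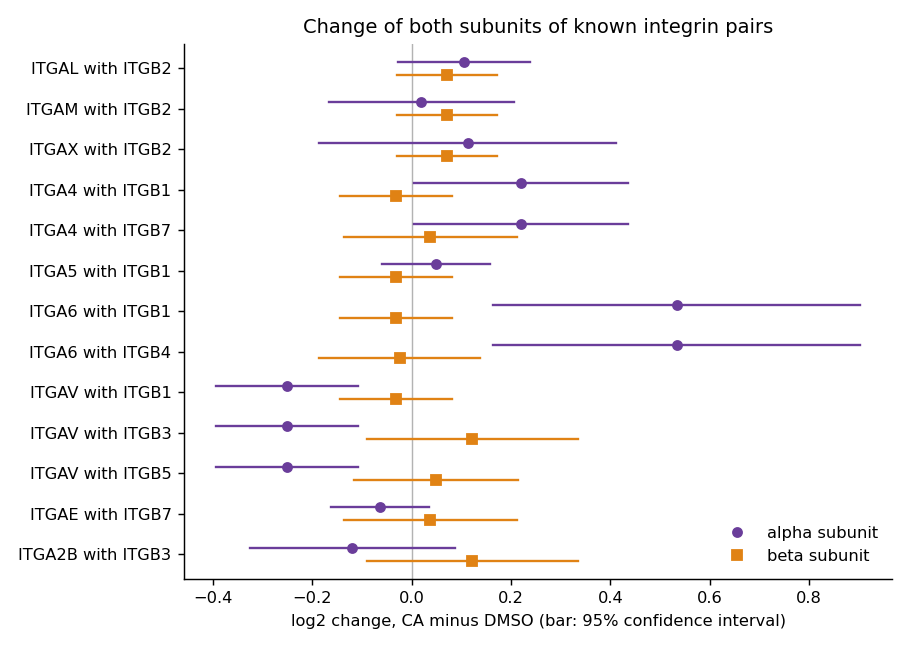
Log2 change of the alpha subunit (circle) and the beta subunit (square) of 13 known integrin pairs, with 95% confidence intervals from limma as bars. The ITGA6 interval (0.16 to 0.90) and, narrowly, the ITGA4 interval (0.0045 to 0.44) lie above 0 and the ITGAV interval (-0.39 to -0.11) below it, none passing adjustment, while the intervals of all beta subunits shown include 0.

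Over all members there were 99 probe sets, of which 52 were dim. At an unadjusted p under 0.05, 11 were higher and 2 were lower, and over all 54613 probe sets these shares were 4.91% and 3.71%. The 11 include repeat readings of the same gene, with 4 probe sets of PECAM1 and 2 of ITGA4. Probe sets of the same gene often differed: those of ITGA1 ranged from -0.21 to 0.10 on the log2 scale and those of ITGB1 from -0.20 to 0.16, and both extremes of ITGB1 came from dim probe sets.

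**Figure D4:**
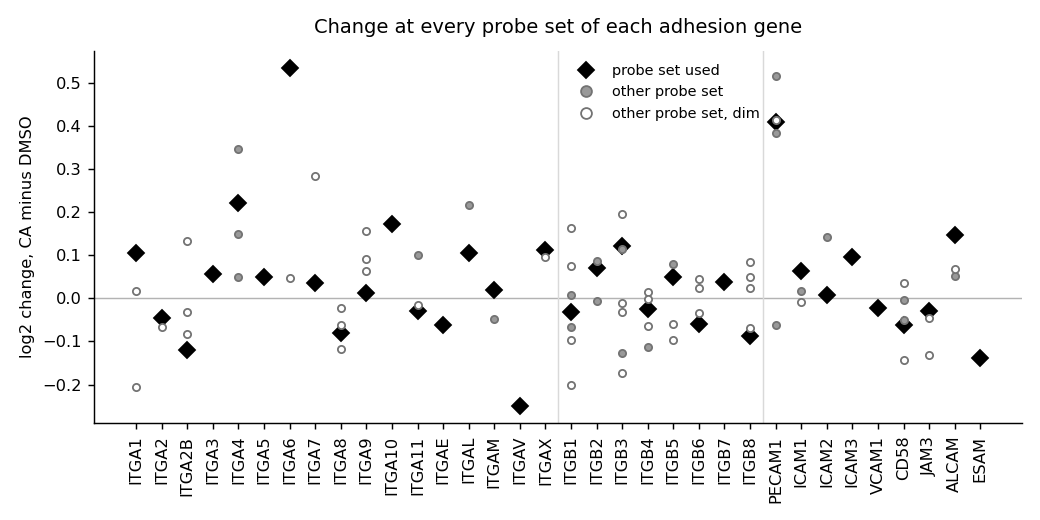
Log2 change (CA minus DMSO) at each of the 99 probe sets of 34 adhesion genes; diamonds are the probe sets used, grey circles other probe sets, open circles other probe sets that were dim. Of the genes with several probe sets, PECAM1 has 4 between 0.38 and 0.51, and most other points lie near 0.

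The starts of ITGAV, ALCAM and ITGA6, the 3 members with the smallest p after PECAM1, are shown for their base composition. The sequences are from RefSeq (GRCh38.p14), each with 300 bases, 250 before to 50 after an annotated start. Of the members 22 had an entry. PECAM1, ITGAL and ITGB2 were not among them, so the shares below leave them out. For ITGA6 and ITGAV, which have 2 starts listed, the one richer in G and C is printed. All are on the plus strand, at chr3:105366659-105366958 for ALCAM, chr2:172427336-172427635 for ITGA6 and chr2:186589806-186590105 for ITGAV. Capitals mark the GC box GGGCGG on either strand, a letter string that SP1 family factors bind.
ALCAM: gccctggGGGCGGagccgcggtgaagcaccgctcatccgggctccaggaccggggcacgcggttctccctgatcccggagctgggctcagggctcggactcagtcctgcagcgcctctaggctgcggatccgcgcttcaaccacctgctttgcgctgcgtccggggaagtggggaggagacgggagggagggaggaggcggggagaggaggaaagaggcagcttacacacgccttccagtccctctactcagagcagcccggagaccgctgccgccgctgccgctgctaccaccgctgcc
ITGA6: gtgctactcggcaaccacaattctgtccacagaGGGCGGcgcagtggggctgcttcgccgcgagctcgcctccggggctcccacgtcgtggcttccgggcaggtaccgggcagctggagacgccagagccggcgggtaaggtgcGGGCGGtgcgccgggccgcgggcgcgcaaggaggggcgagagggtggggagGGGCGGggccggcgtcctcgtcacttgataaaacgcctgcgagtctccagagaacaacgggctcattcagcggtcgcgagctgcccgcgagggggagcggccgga
ITGAV: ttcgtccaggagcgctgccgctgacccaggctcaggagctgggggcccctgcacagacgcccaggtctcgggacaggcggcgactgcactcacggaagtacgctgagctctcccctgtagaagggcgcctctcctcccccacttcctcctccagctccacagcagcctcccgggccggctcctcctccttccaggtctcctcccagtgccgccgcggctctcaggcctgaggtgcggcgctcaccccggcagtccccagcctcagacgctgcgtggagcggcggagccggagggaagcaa
The box occurred 1 time in ALCAM, 3 times in ITGA6 and 0 times in ITGAV. In the starts not printed it occurred 1 time in ITGA6 (53% G and C) and 0 times in ITGAV (41.3%). Of 29 starts of members 15 held it (51.7%), against 45% of 35116 starts of all genes. The ETS core GGAA was in 89.7% of the members' starts and 95.5% of all, and GATA was in 44.8% and 49.7%. The runt core TGTGGT was in 10.3% and 13.1%, TATAAA in 13.8% and 11.5%, and CCAAT in 17.2% and 34.6%. Both strands were searched, matches may overlap, and they describe letters only. GC content had a median of 64.7% in the members' starts and 58.7% in all.

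Genes that work with these receptors were read from 4 lists. Of 49 measured genes of integrin activation and adhesion complexes, 0 were called in limma, where 0.895% of all genes were called. Before adjustment 6 were higher and 0 lower with a p under 0.05, where 7.09% of all genes were higher and 4.5% lower. APBB1IP, which carries RAP1 to talin, had 11.14, 11.12 and 11.11 in CA and 10.90, 10.86 and 10.84 in DMSO, so the groups stood apart (1.19-fold, adjusted p = 0.0622). TNS3, a tensin that links integrin tails to actin, had 1.18-fold (adjusted p = 0.0857), VCL, which encodes vinculin, had 1.16-fold (adjusted p = 0.114), and the focal adhesion kinase relative PTK2B had 1.19-fold (adjusted p = 0.261). The integrin activators TLN1 and FERMT3 had log2 changes of -0.032 and 0.05.

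Of 18 membrane partners of integrins 0 were called, where 0.895% of all genes were called. Without adjustment 1 was higher and 1 lower, where the shares over all genes were 7.09% and 4.5%. The proteoglycan SDC4, a fibronectin co-receptor, had 7.50, 7.43 and 7.46 in CA and 7.70, 7.67 and 7.66 in DMSO, with groups that did not overlap (log2 change -0.21, adjusted p = 0.114). The tetraspanin CD53 had a log2 change of 0.13 (adjusted p = 0.337), and SLC3A2, the heavy chain of an amino acid transporter that binds integrins, and TSPAN32 had 0.09 and 0.14. Of 35 integrin ligands 0 were called, and 18 were dim. Without adjustment 1 was higher and 2 were lower, beside the same shares over all genes. CCN2, a matricellular protein, had 1.27-fold (adjusted p = 0.20). The fibrinogen chains FGA and FGG and the collagen COL4A1 were dim, with log2 changes of -0.24, -0.18 and 0.22.

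Of 34 other leukocyte adhesion receptors, SELPLG was called and 0 were called lower, where 0.895% of all genes were called. Without adjustment 4 were higher and 0 lower, where the shares over all genes were 7.09% and 4.5%. SELPLG, the main ligand of P-selectin on leukocytes, had 8.40, 8.41 and 8.47 in CA and 8.12, 8.09 and 8.08 in DMSO and rose 1.25-fold (1.16 to 1.35, limma adjusted p = 0.0333). The call was lost without any single array (adjusted p from 0.0684 to 0.177) and held in 5 of 16 alternatives, and the other SELPLG probe set gave a log2 change of 0.02. CD44, the hyaluronan receptor, had a log2 change of 0.13 (adjusted p = 0.411), ICAM4 had 0.14 (adjusted p = 0.40), NECTIN3, which was dim, had 0.15 (adjusted p = 0.440), and the dim cadherin CDH2 had 0.23 (adjusted p = 0.202).

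PECAM1 and SELPLG are carried by several blood and vessel cell types, and markers of other cell types were read beside them in these MOLM-14 cells. The 6 endothelial markers had a median log2 change of -0.11, with 0 called and KDR lower with no adjustment, and their summed level on the log2 scale ranged from 7.10 to 7.32 in CA and from 7.19 to 7.32 in DMSO. The 5 platelet markers had 0 called, with a summed level from 7.22 to 7.54 in CA and from 7.31 to 7.43 in DMSO. No marker list of the 7 read had a called gene, where 0.895% of all genes were called. MS4A1 of the B cell list was, like KDR, dim and lower with no adjustment, where 4.5% of all genes were lower. The summed levels of CA and DMSO arrays overlapped in each list. All samples were the MOLM-14 line, so the lists give transcript levels in that line and not a mix of cell types. Whether these levels relate to the PECAM1 and SELPLG results was not tested.

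**Figure D5:**
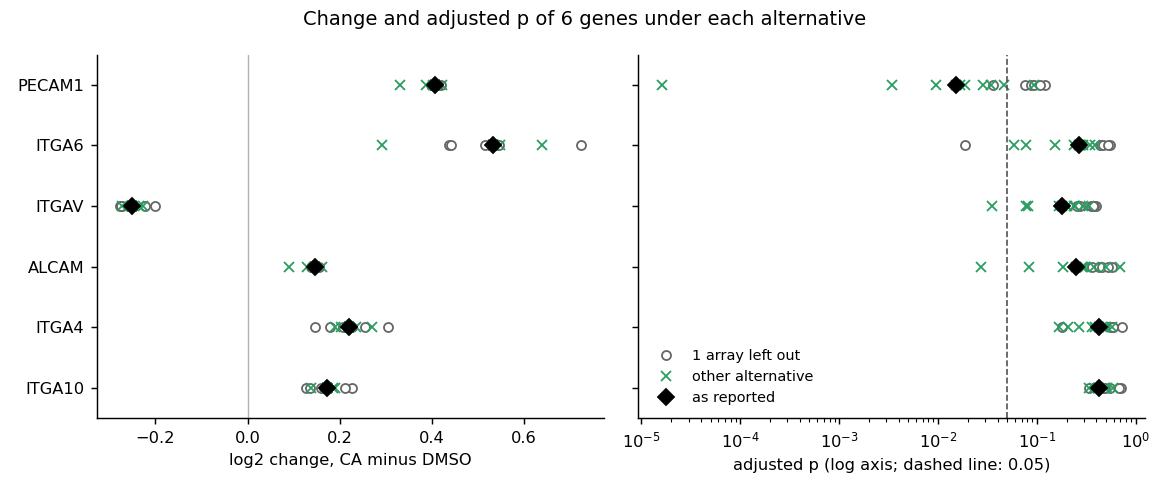
Log2 change (left) and adjusted p on a log axis (right) of the 6 members with an unadjusted p under 0.05; diamonds are the reported values, open circles fits with 1 array left out, crosses other alternatives. The changes keep their sign in each alternative; PECAM1 lies on both sides of 0.05, while ITGA6, ITGAV and ALCAM each pass in 1 alternative.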

How the data were processed

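Expression in MOLM-14 cells was read on 3 CA and 3 DMSO arrays. The values are log2 intensities by probe set in a single table that the authors deposited; the submitters' processing notes name RMA and affy, with no version. Because RMA quantile normalises the arrays, a shift common to every gene cannot be seen. RNA was isolated with either of a pair of reagents per the labels' protocols, with no record of which sample had which.

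Of 54675 probe sets 62 controls were left out. Names came from the platform annotation, in which 41091 of the other 54613 had 1 symbol, 1801 several and 11721 none. Each member was read at its probe set with the highest mean, including probe sets that list it with other genes. All other genes were read at the highest mean among probe sets with 1 symbol. CA was compared with DMSO in limma 3.58.1 (R 4.3.3; lmFit and eBayes without a block) by two-sided tests, and p-values were adjusted by Benjamini-Hochberg across 19776 genes. Folds were computed from the log2 changes. With 3 against 3 arrays an exact permutation test cannot give a two-sided p below 0.1, so p-values rest on limma's pooled spread (2.53 prior degrees of freedom).

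The members and lists were chosen with earlier results of these data known. Members with an unadjusted p under 0.05 and a list of leukocyte members (plus ICAM2) are given array by array, and other members by mean and range. Of each context list the called genes and up to 4 others with the smallest p are named, and TLN1 and FERMT3 were added after their values were seen. Of the 144 genes on the context lists, 8 were not analysed here. The fit was tried on simulated data, and no outcome of that is given here. Alternatives were a replicate block, each array left out, an intensity trend, array weights, a filter on dim genes, 2 normalisations, 4 probe set choices and other thresholds.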

Additional observations from a re-analysis of the deposited data

How the results depend on the processing

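The number of genes called over all genes, 177 as reported, was between 1 and 112 when 1 array was left out. It was 6 with the replicate number as a block, 546 (450 higher, 96 lower) with an intensity trend and a robust prior, 351 without dim genes, 74 without _x_at, _s_at and _a_at probe sets, 314 at an adjusted p under 0.1 and 25 at one under 0.01. The number of members called, 1 as reported, was between 0 and 2 when 1 array was left out (2 without CA replicate 3, PECAM1 and ITGA6), 0 with the block, 3 with the trend (PECAM1, ALCAM and ITGAV), and 0 at an adjusted p under 0.01. With the replicate block PECAM1 had an adjusted p of 0.0928. Whether the numbers pair the samples was not settled. Deviations of same-numbered samples from their group means correlated at 0.04, 0.22 and 0.25, and those of differently numbered samples at -0.26 to 0.09. CA replicates 2 and 3 correlated best with their own number, and CA replicate 1 with another number. In the 16 alternatives PECAM1 had log2 changes from 0.33 to 0.42 and was called in 10. The 6 members with an unadjusted p under 0.05 kept their direction in each alternative run, and the ITGA6 change was 0.29 as a mean over its probe sets, where the dim one counts equally. The cause of the other shifts was not tested. The number of arrays limits what can be seen: the log2 change had a median SE of 0.07 among the genes tested.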

Other observations

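PECAM1 and ICAM2 lie near each other on chromosome 17 in the gene table of GRCh38.p14, with ERN1 and TEX2 between them. The 12 protein-coding genes nearest to PECAM1, 6 on each side, were read after the PECAM1 values were seen. TEX2, next to PECAM1, had log2 values of 8.86, 8.86 and 8.79 in CA and 8.40, 8.52 and 8.48 in DMSO, and was called in limma (log2 change 0.37, adjusted p = 0.0356), the 1 called gene of the 12, where 0.895% of all genes were called. The call was lost without any single array (adjusted p from 0.0654 to 0.183) and held in 6 of 16 alternatives. On the other side, MILR1, an immunoglobulin-like receptor of mast cells, had a log2 change of 0.19 (adjusted p = 0.352). POLG2, a subunit of the mitochondrial DNA polymerase, had 0.18 (adjusted p = 0.269). The groups of both did not overlap, and over all genes 11.8% did not overlap in the higher and 7.53% in the lower direction. Farther out, SMURF2 was lower (log2 change -0.19, adjusted p = 0.409), and ERN1 and ICAM2 had 0.07 and 0.0081. DDX5 had -0.13 and CEP95 had 0.09, and CD79B, SCN4A, PRR29 and LRRC37A3 lay between -0.09 and 0.0089. Without adjustment 4 of the 12 had a p under 0.05, where the share over all genes was 11.6%. Of these TEX2, MILR1 and POLG2 were higher and SMURF2 was lower. Whether these neighbours moved with PECAM1 was not tested.

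Other members that are neighbours gave no called gene, where 0.895% of all genes were called. ITGAM and ITGAX are next to each other on chromosome 16, with log2 changes of 0.02 and 0.11, and the related ITGAD had -0.10 (adjusted p = 0.818). ITGA1 and ITGA2 on chromosome 5 had 0.10 and -0.045, and PELO between them had 0.06.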
